A study of Daphnia magna with 30 samples.

Results

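The 100 transcripts described here were those with the clearest maximum in the extreme long day of a photoperiod experiment on *Daphnia magna*, a freshwater crustacean. They were chosen by their array values, out of 10309 probes that the scanner software called well above background on at least 15 of 30 arrays and whose pooled standard deviation within photoperiods was under 0.8 on the log2 scale. For each probe the highest mean of the other 4 photoperiods was subtracted from the 20L:4D mean, the difference was divided by that pooled standard deviation to give a score, and the 100 highest scores were kept after 2 probes of the clock gene period had been set aside. The array holds 14338 *D. magna* probes in all. Since these values chose the members, their maximum in 20L:4D is given below as a description and carries no test.

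Animals of a single clone, founded by 1 individual and cultured under 16L:8D, were placed as neonates less than 24 h old in photoperiods of 4, 8, 12, 16 or 20 h of light, each written as its hours of light and dark (4L:20D for the shortest day, 20L:4D for the extreme long day, with 16L:8D as the control), and kept for 21 days at 25 °C. Each photoperiod had 3 exposure chambers that stood in the same lit box, so box and photoperiod cannot be told apart, and 2 animals of each chamber, named A and B, were hybridised singly to one-colour Agilent arrays. Whole animals were taken within 1 h of lights on with the eggs or embryos in their brood pouches. The study ran 2 trials and reported that the trial accounted for most of the differences in expression. Only animals labelled as the second trial are described here. In whole animals, fewer cells of a type and less RNA per cell cannot be told apart, and the lights-on time is a different distance from the previous dusk in every photoperiod.

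*Daphnia* read day length as a cue of season, and insects and crustaceans measure it with photoreceptors, a circadian clock and neuroendocrine signals. In the clock, period protein represses its own transcription over the day. Day length is known to bear on growth, moulting and the choice between asexual broods and resting eggs in these animals.

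Names were found for 11 of the members in the study's supplementary annotation, which covers 959 probes that were themselves picked in part on these animals. Of these 11, 4 carry the name of a known protein, and the other 89 members are given by probe only. The 50-base probes below, printed 5′ to 3′ as the annotation gives them, are of the members on which the results turn: the choline transporter leads the list, the next pair rose step by step with day length, and the last pair followed each other from chamber to chamber.
DM05417P2, high-affinity choline transporter: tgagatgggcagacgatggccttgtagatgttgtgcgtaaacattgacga
DM05827P3, hypothetical protein: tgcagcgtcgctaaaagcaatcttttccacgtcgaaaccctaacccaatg
DM08380P2, uncharacterized protein: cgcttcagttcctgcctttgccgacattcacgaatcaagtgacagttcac
DM00375P2, vitellogenin fused with superoxide dismutase: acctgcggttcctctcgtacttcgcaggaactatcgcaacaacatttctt
DM07717P2, hypothetical protein: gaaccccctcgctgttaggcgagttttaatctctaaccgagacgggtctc

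Most members stood only slightly higher in 20L:4D. The difference between the 20L:4D mean and the next highest photoperiod had a median of 0.25 on the log2 scale, or 1.19-fold, with a range from 0.13 to 1.10, and 2 members exceeded 1.5-fold. For 72 of the 100 the difference was larger than the pooled standard deviation. The score ran from 3.15 for DM05417P2 through 1.36 for the 10th member to 0.93 for the 100th. The members varied little within photoperiods, with a median standard deviation of 0.23 against 0.31 over all eligible probes, which the division in the score favours. They were also brighter, with a median level of -0.39 log2 relative to the 75th percentile of the array against -1.71, and 95 of them were well above background on all 30 arrays, as were 85.7% of all eligible probes. The other 5 were dim, with mean levels between -5.22 and -4.57.

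**Figure D1:**
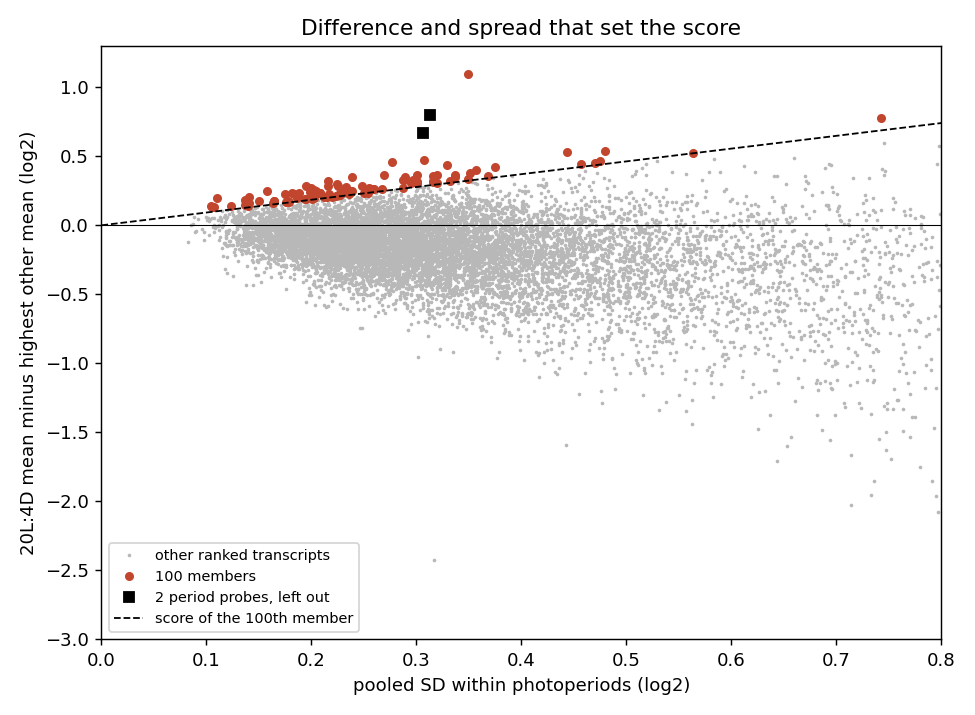
The 20L:4D mean minus the highest other photoperiod mean (y, log2) against the pooled standard deviation within photoperiods (x, log2) for the 10307 ranked transcripts. The members (red) lie on or above the dashed line of the 100th score, DM05417P2 stands apart at 1.10, and most members sit below 0.33 on the y axis.

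Scores of this size were not particular to the extreme long day. With the same rule turned to each photoperiod, a score as high as that of the 100th member was reached by 153 transcripts for the day of 4 h, 48 for 8 h, 82 for 12 h and 273 for the 16 h control, against 100 for 20 h. The top score was higher in 20L:4D than in the others, at 3.15 against 2.86, 1.81, 1.90 and 2.39 for days of 4, 8, 12 and 16 h.

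The photoperiod next below 20L:4D was the 16L:8D control for 49 members, the day of 4 h for 29, that of 8 h for 13 and that of 12 h for 9. Over all ranked transcripts the highest of these 4 photoperiods was the control for 39.3%, and the days of 4, 8 and 12 h for 23.9%, 16.6% and 20.3%. For 68 members the whole range of the other 4 means was no wider than the step up to 20L:4D. The score selects for a large step, and this count is given without the same count over all ranked transcripts. Nothing particular to the members is therefore read from it. Only 6 members rose at every step from 4L:20D to 20L:4D, beside 1.01% of all ranked transcripts and 4.72% of those highest in 20L:4D. These 6 were DM05417P2, DM05827P3, DM08380P2, DM00399P3, DM11903P2 and DM04275P2, and the 20L:4D means of the last 3 were no more than 0.25.

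**Figure D2:**
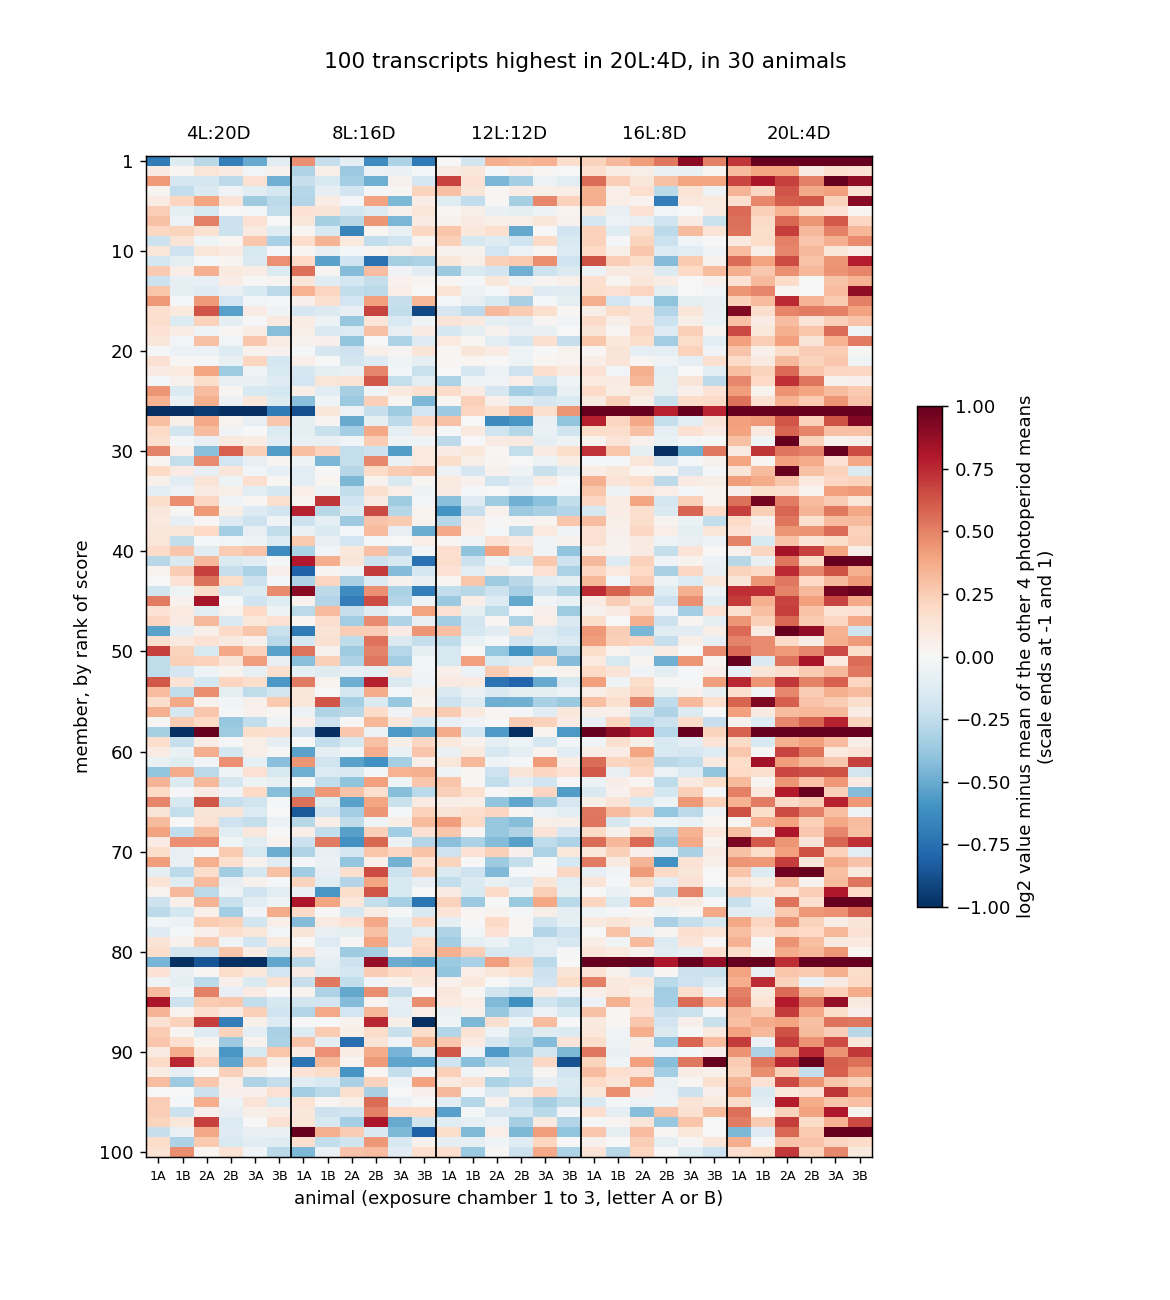
Log2 value of each of the 100 members (rows, ordered by score) in each of the 30 animals (columns, by photoperiod, chamber and letter), minus the mean of the 4 other photoperiod means of that member. The 20L:4D block is red in most rows, and the rows at ranks 26 and 81 (DM05827P3 and DM08380P2) are also red in 16L:8D and blue in 4L:20D.

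The highest-scoring member was the high-affinity choline transporter, DM05417P2, which in insects and mammals carries choline into nerve endings that make acetylcholine. The probe was dimmer than most members, at a level of -2.79 against a median of -1.71 over eligible probes, but well above background on all 30 arrays. Its log2 values, which the authors scaled to each array and centred on the median of the probe over all arrays, were 0.44 and 1.67 in chamber 1 of 20L:4D (animals A and B), 1.43 and 0.96 in chamber 2, and 1.64 and 1.72 in chamber 3. The 16L:8D animals lay between -0.05 and 0.62 and those of 12L:12D between -0.45 and 0.08. Days of 8 h gave -0.98 to 0.19 and days of 4 h -0.97 to -0.38. Of the 6 animals in 20L:4D, 5 lay above all 24 animals of the other photoperiods, and animal A of chamber 1 lay below 1 of them, in 16L:8D. The photoperiod means rose at every step, from -0.67 ± 0.27 (SD, n = 6) in 4L:20D through -0.52 ± 0.42, -0.10 ± 0.22 and 0.21 ± 0.23 to 1.31 ± 0.51 in 20L:4D. The last step was the widest, a fitted log2 fold change of 1.10 ± 0.20 (SE) over 16L:8D. Leaving out any 1 of the 15 chambers gave 0.91 to 1.22.

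The probes of period, which the rule leaves out, had the next highest scores, 2.55 for DM14516P3 and 2.19 for DM09904P4. Their 20L:4D means were 0.84 ± 0.36 and 0.73 ± 0.12 (SD, n = 6), against means between -0.36 and 0.06 in the other photoperiods.

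None of the members ranked 2 to 10 reached the size of the choline transporter, and 8 of these 9 have no name. DM01753P3, ranked 2, read 0.26, 0.34, 0.34, 0.04, 0.12 and 0.09 in the 20L:4D animals (chambers 1 to 3, A before B in each, here and below) and between -0.42 and 0.11 in the other 24. Its score came from a small spread, since the difference was only 0.20. Of the 6 animals in 20L:4D, 4 lay above all others.

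DM05236P2, ranked 3, read 0.54, 0.69, 0.55, 0.38, 1.08 and 0.76 in 20L:4D, against -0.61 to 0.55 elsewhere. Chamber 3 held the 2 highest animals, and 2 animals of other photoperiods lay above the lowest of the 6. DM08124P1 read 0.28, 0.15, 0.57, 0.32, 0.35 and 0.09 against -0.35 to 0.29, with 3 animals above all others. DM10944P1, a dim probe at a level of -4.12, read 0.08, 0.39, 0.52, 0.53, 0.14 and 0.82 against -0.78 to 0.39, and 6 other animals lay above its lowest 20L:4D animal.

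DM10432P2 read 0.54, 0.21, 0.32, 0.15, 0.12 and -0.01 in 20L:4D and -0.27 to 0.22 elsewhere. Its groups overlapped widely, with 11 of the 24 other animals above the lowest in 20L:4D. DM03817P2 read 0.48, 0.12, 0.50, 0.37, 0.54 and 0.14 against -0.53 to 0.43, with the A animals higher than the B animals in each chamber. DM04744P1 read 0.40, 0.03, 0.55, 0.18, 0.36 and 0.19 against -0.80 to 0.18. In this transcript 5 of the 6 animals lay above all others, and A was again higher than B in each chamber.

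DM00119P1, ranked 9, is a hypothetical protein whose older annotation likens it to ribosomal protein S5, a part of the small ribosomal subunit. It read 0.04, 0.12, 0.44, 0.21, 0.30 and 0.41 in 20L:4D against -0.39 to 0.28, and 8 other animals lay above the lowest of the 6. DM06408P2, ranked 10, read 0.27, 0.02, 0.44, 0.28, 0.07 and 0.02 against -0.25 to 0.22. The members ranked 11 to 20 (DM09496P1, DM10769P3, DM02271P1, DM03878P1, DM07322P1, DM03879P1, DM14846P3, DM12168P3, DM13735P1 and DM11630P3) have no name, and their 20L:4D means lay above the next photoperiod by 0.13 for DM11630P3 to 0.44 for DM03879P1.

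In no member were the 6 animals of 20L:4D all above the other 24. In 37 members all 6 lay above the highest other photoperiod mean, in 48 members 5 did, and in 15 members 4 or fewer. Between 1 and 23 of the 24 other animals lay above the lowest 20L:4D animal, with a median of 9. The values that chose the members also set these counts in large part. They are given without the same counts over all ranked transcripts, so nothing particular to the members is read from them. At the edge of the list the values were close: DM04760P2 and DM13001P1, ranked 99 and 100, scored 0.929 and 0.926 with differences of 0.17 and 0.23, and DM01444P1 and DM09903P2, which just missed, scored 0.925 and 0.924 with differences of 0.11 and 0.28.

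Among the annotated members of unknown function, 5 had a range of the other 4 means wider than the step to 20L:4D. In 3 of them (DM05827P3, DM08380P2 and DM08568P3) that range was more than 1 on the log2 scale, and in DM05601P1 and DM05657P2 it was 0.59 and 0.45. DM05827P3, a hypothetical protein and a very bright probe (level 5.94), lay between -1.46 and -0.91 in the shortest day, between 0.57 and 1.39 in the control and between 0.85 and 1.57 in the extreme long day. Its photoperiod means were -1.24, -0.46, -0.04, 0.96 and 1.32 from the shortest to the longest day, so the last step was 0.37 and the range of the other means 2.20. The 4L:20D animals did not overlap with those of 16L:8D or 20L:4D, while 16L:8D and 20L:4D overlapped.

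DM08380P2, an uncharacterized protein, followed the same course with means of -1.13, -0.24, -0.17 and 1.06 up to 16L:8D. Its 20L:4D animals read 2.23, 1.49, 0.62, 1.04, 1.61 and 2.04, so 4 lay above all others and both animals of chamber 2 lay within the range of 16L:8D, which was 0.69 to 1.46, or below it. DM08568P3, a hypothetical protein, had means of -0.17, -0.61, -0.52, 0.62 and 1.40 and the widest spread of any member, a pooled standard deviation of 0.74. Its 20L:4D animals read 0.42, 1.63, 1.42, 1.43, 0.91 and 2.59, while animal A of chamber 2 in 4L:20D read 1.48.

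**Figure D3:**
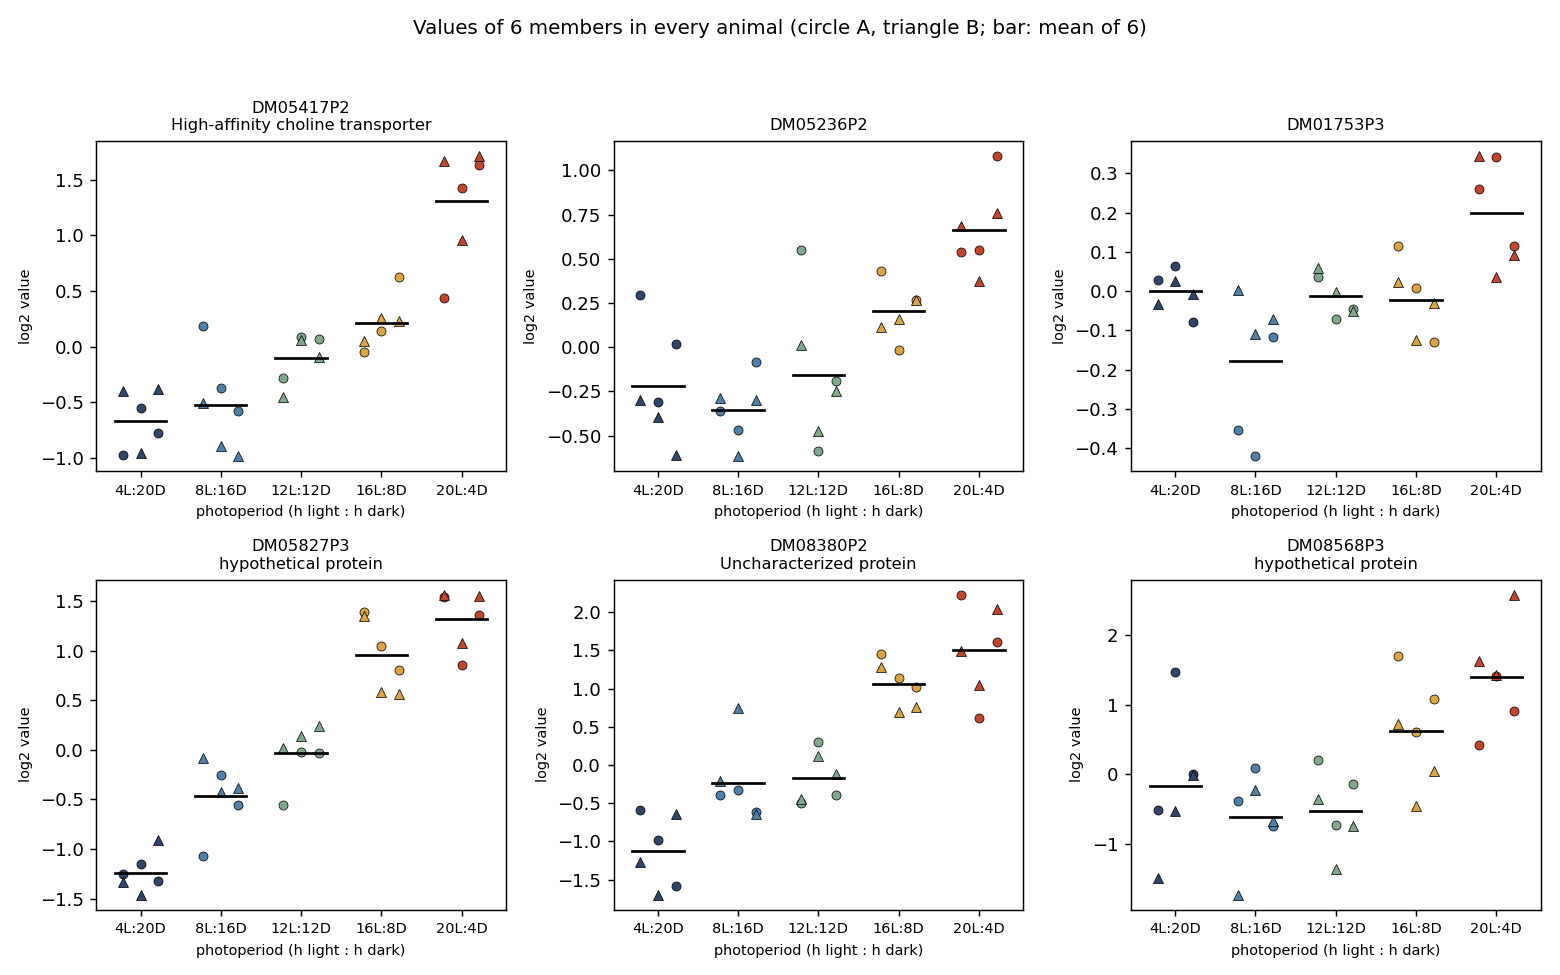
Log2 value (y) of 6 members in each of the 6 animals of each photoperiod (x), with chambers 1 to 3 from left to right, circles for A, triangles for B and bars for the mean of 6. DM05417P2 steps up most between 16L:8D and 20L:4D, while DM05827P3 and DM08380P2 rise most before 20L:4D.

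Of the other named proteins, tyrosine aminotransferase (DM06215P1, the first enzyme of tyrosine breakdown) had a 20L:4D mean of 0.54 ± 0.54 (SD, n = 6). It read 0.04, 0.32, 0.54, 1.60, 0.39 and 0.34 there, and the high mean rested in part on animal B of chamber 2. In 16L:8D it ranged from -0.64 to 0.90, so the groups overlapped. NipSnapA (DM11870P2, whose mammalian relatives are mitochondrial proteins) read 0.88, 0.55, 0.38, 0.07, 0.52 and 0.67 in 20L:4D, against 0.19 ± 0.36 (SD, n = 6) in 16L:8D and -0.44 ± 0.10 in 12L:12D. All 6 animals of 12L:12D read between -0.60 and -0.32, below all 6 of 20L:4D. The uncharacterized proteins DM05601P1 and DM05657P2 had 20L:4D means of 0.80 ± 0.33 and 0.41 ± 0.16, and 12L:12D was also their lowest photoperiod, at -0.22 ± 0.05 and -0.37 ± 0.22. Over all members 12L:12D was the lowest photoperiod for 45 and 8L:16D for 31, beside 29.3% and 18.1% of ranked transcripts in which the same photoperiod was the lowest of the 4.

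Vitellogenin fused with superoxide dismutase (DM00375P2), a yolk protein precursor, stood far higher in 1 chamber than in the others. In 20L:4D it read -0.45 and -0.13 in chamber 1, 0.57 and 0.26 in chamber 2, and 1.25 and 2.23 in chamber 3. Chamber 1 thus lay below the mean of every other photoperiod and chamber 3 above all 24 other animals. Without chamber 3 the fitted log2 fold change over 16L:8D turned from 0.52 ± 0.32 (SE) to -0.04, and without chamber 1 it was 0.98.

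DM07717P2, a hypothetical protein, and DM02636P2, with no name, followed it animal by animal. DM07717P2 read -0.25, -0.10, 0.52, 0.14, 1.08 and 1.85 in 20L:4D, and DM02636P2 read -0.24, -0.03, 0.58, 0.23, 1.27 and 2.04. After the photoperiod means were removed, the 3 correlated at 0.98 to 0.99 over the 30 animals, and chambers 1 and 3 of 8L:16D lay far apart too, at 0.68 and -0.63 for DM00375P2. No run of 12 bases is shared by the DM00375P2 and DM07717P2 probes, nor by any other pair of the 11 annotated probes, in the orientation given. DM02636P2 is not annotated, so its sequence could not be compared. Probes set on different stretches of 1 transcript need share no run either. Whether the 3 read the same transcript was therefore not tested. The group was noticed in the values, and these correlations are a description.

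The difference between chambers was a measure the rule did not use as such. Tested with limma over all probes, the chambers of 20L:4D differed in DM02636P2 (adjusted p = 0.0298) and in DM00375P2 (adjusted p = 0.0462), while DM07717P2 missed 0.05 (adjusted p = 0.0573). At an unadjusted p under 0.01 the chambers of 20L:4D differed in 6 of the 100 members, close to the 4.96% of all probes, and 2 members passed Benjamini-Hochberg adjustment at 0.05. The other 3 of the 6 were DM03878P1, DM07819P2 and DM04275P2. DM03878P1 was at 0.47, 0.01 and 0.60 in chambers 1 to 3 and DM07819P2 at 0.08, 1.01 and 0.21, so the high chamber was not the same in each.

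**Figure D4:**
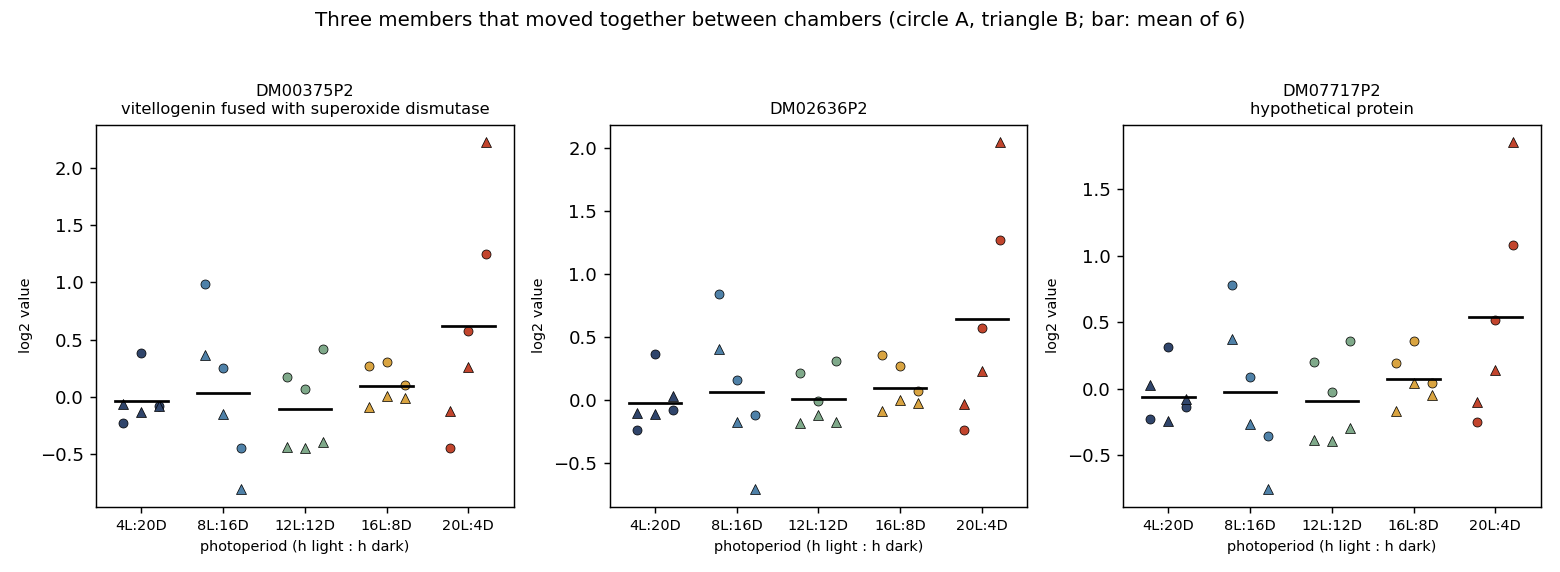
Log2 values (y) of DM00375P2, DM02636P2 and DM07717P2 in each animal by photoperiod (x), with chambers 1 to 3 from left to right, circles for A, triangles for B and bars for the mean of 6. In each panel chamber 3 of 20L:4D holds the 2 highest animals and chamber 1 lies below 0.

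Another probe of the same name, DM01555P3, did not share this pattern, with means of 0.34, 0.14, 1.33, -0.63 and -1.07 from the shortest to the longest day. Since whole animals carried their broods, the 8 probes on the list of egg and embryo markers (vitellogenin, vitelline membrane and chorion names) were summed, and the log2 of the sum relative to the 75th percentile of the array was taken. It lay between 4.27 and 5.69 in the 20L:4D animals, between 3.81 and 5.15 in 16L:8D, and between 3.31 and 4.73 over the 3 shorter days. Of these 8, 1 was a member (DM00375P2), 4 were highest in 20L:4D and none was called higher or lower there than in 16L:8D. Of the 8, 1 was well above background on fewer than 15 arrays. The part of brood stage in the members' values was not tested.

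Across chambers as a whole, 3 of the 100 members differed between the chambers of a photoperiod at an unadjusted p under 0.01 (DM02636P2, DM07717P2 and DM00375P2), beside 2.05% of all probes, and 5 did at 0.05. None passed adjustment. No member responded to the animal letter at an unadjusted p under 0.01 in limma, where 0.446% of all probes did; 2 passed 0.05, among them DM04744P1, in which A exceeded B by 0.18 on average. Likewise, no member passed 0.01 for the interaction of photoperiod and letter, against 1.46% of all probes, and 3 passed 0.05. Within 20L:4D, A and B differed in 1 member, DM12168P3, by 0.41 (adjusted p = 0.771), beside 1.21% of all probes. The division by the spread within photoperiods kept transcripts with large differences between animals off the list, so low counts here follow in part from the choice.

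Members differed in how closely they moved together from animal to animal. After the photoperiod means were removed, the median correlation over the 4950 pairs of members was 0.20, with quartiles of -0.01 and 0.38, against 0.05, with quartiles of -0.17 and 0.26, over all pairs of ranked transcripts. These values share arrays and their scaling and are descriptions. The closest pairs beside the 3 were DM00388P4 with DM02382P1 at 0.92 and DM05657P2 with DM02770P1 at 0.91. DM03878P1 and DM03879P1, neighbours in number and both among the top 20, were not alike, at -0.12.

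In every 20L:4D animal the median member stood above the mean of the other photoperiods, by 0.35 and 0.19 in chamber 1, 0.52 and 0.32 in chamber 2, and 0.36 and 0.29 in chamber 3. Between 83 and 100 of the members lay above that mean in these animals, beside 39.3% to 68.8% of all ranked transcripts. Since the rule used these animals, the high medians and counts follow from the choice. Animals of the other photoperiods had medians between -0.20 and 0.25, the highest being animal B of chamber 2 in 8L:16D, which lay above animal B of chamber 1 in 20L:4D. Chamber 2 was the highest 20L:4D chamber for 51 members, and it was also the highest for 53.0% of all ranked transcripts, whose median there was 0.15 against -0.01 and -0.02 in chambers 1 and 3. The arrays were scanned on 2 days, and 2 of the 6 animals of 20L:4D were scanned on the later day, 1 with the highest member median (0.52) and 1 with 0.29. The later day also held 2 animals of 16L:8D, which had the 2 highest member medians of that photoperiod (0.17 and 0.16, the other 4 between -0.14 and 0.07), and 1 of 12L:12D, but none of the days of 4 or 8 h. Without the later day, the rule kept 51 of the 100 members.

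The rule was then applied to 2 replicates of every photoperiod, and the chambers of the remaining replicate, which it had not used, were looked at. Without replicate 1, the left-out 20L:4D chamber was the highest of the 5 left-out chambers for 19 of the 100 transcripts so chosen, beside 15.1% of all ranked transcripts. Without replicate 2 it was the highest for 43, beside 41.3%, and without replicate 3 for 27, beside 18.5%. The counts lay close to the background for replicates 1 and 2. For replicate 3 the direction turned with the normexp background correction, an alternative chosen after seeing the data, under which the left-out chamber was the highest for 17 beside 52.9%. In the main setting 36, 37 and 33 of the chosen transcripts were among the 100 members. Against the mean of the other left-out chambers, the left-out 20L:4D chamber was higher for 51, 80 and 61 of the chosen transcripts, beside 44.3%, 69.7% and 48.6% of all ranked transcripts.

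Only 5 transcripts were chosen in all 3 of these rounds, and in each of them the left-out 20L:4D chamber was the highest every time. They were DM05417P2, DM05236P2, DM04744P1, DM03817P2 and DM01753P3, all among the top 8 members. The choline transporter ranked 1 in each round, and its left-out chamber stood 1.36, 1.47 and 1.91 above the mean of the other left-out chambers. For DM05236P2 these differences were 0.55, 0.80 and 1.03, and for DM04744P1 0.26, 0.65 and 0.37. DM03817P2 gave 0.38, 0.47 and 0.44, and DM01753P3 0.32, 0.27 and 0.17. These 5 were singled out by passing all rounds, and each left-out chamber had helped to choose them in the other 2 rounds. That it was the highest every time thus follows in large part from the choice. In all 3 replicates the 20L:4D chamber was the highest for 59 of the 100 members, and for 195 of the 10307 ranked transcripts.

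**Figure D5:**
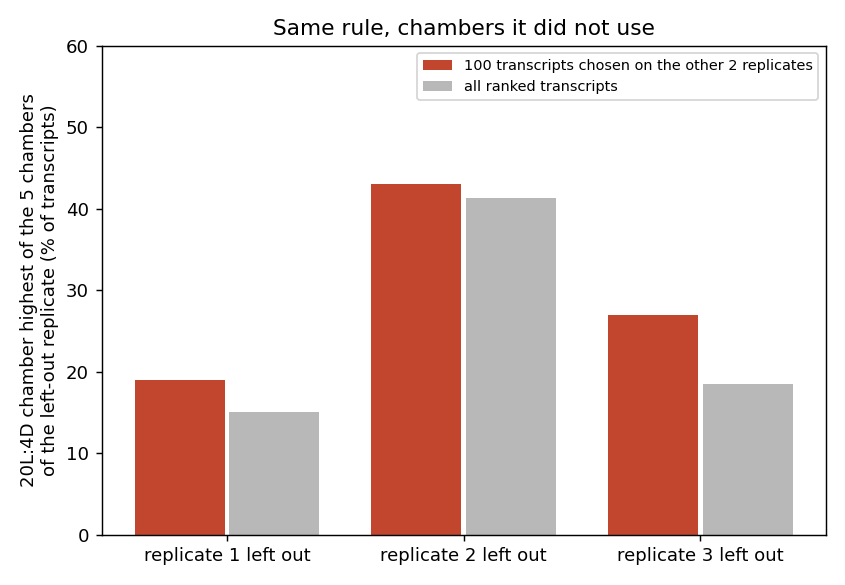
Share of transcripts (y, %) whose 20L:4D chamber was the highest of the 5 chambers of the replicate left out of the rule (x), for the 100 transcripts chosen on the other 2 replicates (red) and for all ranked transcripts (grey). The bars stand at 19 and 15.1% for replicate 1, 43 and 41.3% for replicate 2, and 27 and 18.5% for replicate 3.

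Against the 16L:8D control, with a call needing an unadjusted p under 0.01 for photoperiod, an unadjusted p under 0.05 for the difference and at least 1.5-fold, 2 members were called higher in 20L:4D, DM05417P2 and DM08568P3. The rule used this contrast, so nothing is read from the count; over all probes 0.349% were called higher (50 probes) and 0.46% lower (66 probes), and 11.4% responded to photoperiod. All 100 members had a fitted value above 16L:8D, by a median of 0.30, against -0.02 over all probes. The call of DM08568P3, at a log2 fold change of 0.78 ± 0.36 (SE), was lost without replicate 3 of 12L:12D (0.78), replicates 2 (0.51) or 3 (0.75) of 16L:8D, or replicates 2 (0.77) or 3 (0.60) of 20L:4D.

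Most transcripts called higher than the control were thus not members. The 50 were sorted in turn, each under the first heading that applied. Beside the members, 2 were the period probes and 6 were well above background on too few arrays. Of the rest, 8 had a pooled standard deviation of 0.8 or more, 21 were higher still in another photoperiod and 11 scored below the 100th member. Some of the 6 and of the 8 were also higher in another photoperiod, so 21 is not the full count of these. Among all probes outside the eligible set, 13 had a score at least as high as the 100th member, 12 of them dim. The highest of these, chosen after its values were seen, was cytochrome P450 305a1 (DM12027P2, a member of a family of oxidising enzymes). Its means were -1.04, -0.91, -0.63, 0.78 and 1.96 from the shortest to the longest day, but it was well above background on 9 arrays only.

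The members were set beside lists of genes matched by keyword in the same annotation, whose direction is no independent evidence since the annotated probes were picked in part on these animals. Over all probes the median log2 difference between 20L:4D and 16L:8D was -0.02. For glucose release and glycogen, 3 of 4 probes were called higher and none was a member, with a list median of 1.01. Both probes of glucose-6-phosphatase, which frees glucose from its phosphate, had 20L:4D means of 0.84 (DM09565P2) and 0.82 (DM10507P2) against 0.64 and 0.65 in 4L:20D. Glycogen debranching enzyme (DM03734P1) was at 0.18 in the extreme long day, -0.55 in the control and 0.31 in the shortest day. For these 3 probes 16L:8D was thus the lowest or next to lowest photoperiod, and 4L:20D was near 20L:4D. The remaining probe of the list, phosphoenolpyruvate carboxykinase (DM01903P2), was not called and went the other way. Its control mean of 0.77 was close to the extreme long day's 0.80, while the shortest day stood far lower, at -0.26.

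For glutamine and glutamate, 1 of 2 probes was called higher, glutamine synthetase (DM01623P1), which joins ammonia to glutamate. Like glycogen debranching enzyme, it was higher in 4L:20D (0.85) than in 20L:4D (0.50), and the list median was 0.43. Of the 12 probes on the list of digestive enzymes 2 were called higher and none lower (median -0.02). The keywords of this list also caught names not particular to digestion. These were a group XV phospholipase A2 (DM03155P1), a patatin phospholipase domain-containing protein (DM07337P1) and carboxypeptidase D (DM04725P3), none of them called. Of the 12 detoxification probes 1 was called higher and 1 lower (median -0.09), and both clock probes, those of period, were called higher (median 0.80).

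Of 3 lipid transport probes 1 was called higher, a low-density lipoprotein receptor-related protein (DM03506P1), and 1 was a member, DM00375P2 (list median 0.52). DM03506P1 was highest in 20L:4D, at 0.63, but its difference of 0.39 over 4L:20D fell short of the score. Of 4 probes under mitochondrial respiration 1 was called lower (median -0.44). Another of the 4, DM04041P1, is now named small nuclear ribonucleoprotein E and matched by its older name only. Of 6 probes on the transporter list the choline transporter was the only one called higher and the only member (list median -0.32). The list also holds innexins, which form gap junctions and are not named as transporters. Of these, 2 were called lower (DM03473P2 and DM05167P3) and DM03078P1 was not called.

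Beside the egg list, none of the tissue marker lists held a member. Of the probes matched by keyword to muscle 1 of 2 was called lower, of gut 1 of 7 higher, and of dividing cells 2 of 9 lower, at list medians of -0.40, 0.15 and -0.67. The keywords also caught names that are not markers of the tissue. Under muscle this was a non-muscle-like myosin heavy chain (DM04779P1). Under dividing cells these were a histone deacetylase component, a histone demethylase-like protein and a non-histone chromosome protein. None of 10 epidermis, 1 blood and 3 eye and nervous system probes was called, at medians of -0.41, -0.44 and 0.10. The 3 eye and nervous system probes had summed levels (log2, as above) between 4.94 and 5.81 in 20L:4D and between 5.06 and 5.64 in 16L:8D. They are an arrestin and 2 class A rhodopsin receptors, with fitted differences over 16L:8D of -0.20, 0.11 and 0.10. The choline transporter is at work in nerve cells, but none of the 3 is named for cells that make acetylcholine. The part of nerve tissue in its values was not tested.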

How the data were processed

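RNA of 30 single *D. magna* was measured on one-colour Agilent arrays. The authors deposited background-subtracted spot intensities from Agilent Feature Extraction (version 10.7.3.1 in the file headers, 9.5.1 in the labels), with spot flags and other scanner columns, of which the call of a spot well above background was used. They also deposited a log2 table in which each array was scaled by its 75th percentile and each probe centred on its median. The score and the printed log2 values come from that table. Levels and tests come from the log2 of the processed intensity minus the 75th percentile of the array, after leaving out 536 control spots per array and 188 outlier spots and averaging spots of a probe. Between 10568 and 12900 probes per array were well above background, and no probe was saturated; the number of arrays limits the precision.

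Photoperiod, animal letter and their interaction were fitted with limma 3.58.1 in R 4.3.3 over all probes, with thresholds following the study's methods. Chambers within photoperiods were fitted as 15 groups. Benjamini-Hochberg adjustment ran over all probes tested. The SE is limma's, and other errors are SDs over 6 animals. The animals of a chamber share it, and p values measure the spread between animals. Python 3.11.15 with numpy 2.4.6, pandas 2.3.3 and matplotlib 3.10.9 did the rest, and the fit and the rule were tested on simulated data.

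The members, the gene lists and the rule for naming were chosen with earlier results of these data known. Named were the 20 highest-scoring members, other known proteins among the top 50, members on a gene list, and the 2 members and 2 other transcripts next to the limit, with the other annotated members and the 3 that moved together added after their values were seen. The 10 highest are given by every 20L:4D animal and by ranges elsewhere. Alternatives were other normalizations and backgrounds, detection limits, blocks and leaving out each chamber. The scanner files and the table name no genes, no genome was used, and names and probe sequences are those of the study's supplementary annotation. The deposited intensity files hold no mean signal, so the normexp alternative (offset 50) used the median signal.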

Additional observations from a re-analysis of the deposited data

Results flagged for a closer look

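Over the named transcripts and the median of the members, the 6 animals of a photoperiod were examined for a single animal far from the other 5 in 170 groups. In 9 of them the gap to the nearest animal exceeded Dixon's 95% value, and chance flags about 1 in 20 groups. Only 1 lay in the extreme long day: tyrosine aminotransferase (DM06215P1) read 1.60 in replicate 2 animal B of 20L:4D, against 0.04 to 0.54 in the other 5 animals. In 16L:8D, DM10944P1 read -0.78 in replicate 2 animal B (others -0.06 to 0.28). In 12L:12D, replicate 1 animal A stood apart in DM08124P1 at 0.24 (others -0.04 to 0.06) and in DM05827P3 at -0.56 (others -0.03 to 0.24). In 8L:16D, DM08380P2 read 0.75 in replicate 2 animal B (others -0.64 to -0.21). In 4L:20D, replicate 3 animal B read 0.32 for DM09496P1 (others -0.32 to -0.12) and -0.46 for DM12168P3 (others -0.08 to 0.11). In the same photoperiod, DM03878P1 read 0.28 in replicate 1 animal A (others -0.26 to -0.07), and DM00375P2 read 0.39 in replicate 2 animal A (others -0.23 to -0.07).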

How the results depend on the processing

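Of the 100 members, the rule kept 59 with the normexp background correction, 39 when transcripts were ranked by the difference alone, 51 with the arrays of the earlier scan day only, and 36, 37 and 33 without replicate 1, 2 or 3 of every photoperiod (the last 2 kinds chosen after seeing the data). With each of the 15 chambers left out it kept 41 to 93, with the 3 lowest counts, 49, 49 and 41, for chambers 1, 2 and 3 of 20L:4D. The 2 members called higher than 16L:8D became 1 with slide as a block, quantile normalization, photoperiod alone or the earlier scan day only, 0 after Benjamini-Hochberg adjustment (2 in the main setting, unadjusted), and 1 to 4 with a chamber left out. With the replicate block the count was 2. Correlations between same-numbered chambers ran from -0.60 to 0.60 with a median of 0.03, and 12 of 30 exceeded 0.1. They cannot settle whether the labels' replicate numbers pair the chambers. The interaction with letter passed in 1 member with slide as a block, and in 0 to 2 with a chamber left out, as did the letter. The chamber difference, seen in 3 members, passed in 1 with normexp, in 0 after adjustment, and in 0 to 3 with a chamber left out. The left-out 20L:4D chamber was highest for 31 (background 19.4%) with quantile normalization and 9 (10.3%) with normexp in replicate 1, and for 17 (52.9%) with normexp in replicate 3, alternatives chosen after seeing the data. DM00375P2 reversed to -0.0351 without replicate 3 of 20L:4D, and rose to 0.977 and was called without replicate 1. The cause of these shifts was not tested.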
